A study of Mus musculus with 4 samples.

Results

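The genes examined here encode the machinery that builds, binds, shortens and removes the poly(A) tail and then degrades the mRNA body. They are a list of 40 genes chosen by name, with earlier results of these data known. The deposited table holds 13831 gene symbols, and all 40 genes had reads. They fall into 7 groups by role. These are 3 poly(A)-binding proteins, 2 poly(A) polymerases, 11 subunits of the CCR4-NOT deadenylase, 3 subunits of the PAN2-PAN3 and PARN deadenylases, 5 factors that bring deadenylases to mRNAs, 8 decapping and 5′-to-3′ decay factors, and 8 exosome components. The transcripts were read in J1 mouse embryonic stem cells, a cultured line of the mouse embryo, grown in medium with fetal calf serum and LIF and given no treatment. The study set wild-type cells (WT) beside cells without Mov10 (KO), a gene for an RNA helicase, with 2 libraries on each side (WT 1 and WT 2, KO 1 and KO 2). The labels do not say which part of Mov10 was removed, whether the KO cells are a single clone, or whether the libraries of a genotype came from separate cultures. The p-values below therefore measure the spread between these libraries, which may be technical.

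A new mRNA receives its tail in the nucleus from a poly(A) polymerase, and the tail is then covered by poly(A)-binding proteins that promote translation and protect the end. In the cytoplasm PAN2-PAN3 and CCR4-NOT shorten the tail, with adaptor proteins such as TOB, BTG and PUM proteins recruiting CCR4-NOT to chosen mRNAs. An mRNA that has lost its tail is decapped by DCP2 and its cofactors and degraded from the 5′ end by XRN1, or degraded from the 3′ end by the exosome. The genes described here make this machinery, so their own mRNAs are also its substrates, and the values are tail lengths and read numbers of those mRNAs and not the activity of the proteins.

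The libraries held 439535 reads (WT 1), 351133 reads (WT 2), 683239 reads (KO 1) and 430012 reads (KO 2) with a tail length above 0. Mov10, the targeted gene, was read 26 and 14 times in WT against 0 times (KO 1) and 1 time (KO 2), a log2 change of -5.09 ± 0.85 (SE) with a Benjamini-Hochberg adjusted p of 0.0553 in limma's voom test. All 12 embryonic stem cell markers examined were detected, and their summed level was between 9801 and 11069 scaled RPM (reads per 1000000 reads after scaling between libraries) in WT and between 6979 and 8397 in KO. The collagen genes, Postn and Lum of the fibroblast list, Sox17 and Foxa2 of endoderm, T of mesoderm, Sox1 and Neurog1 of neural cells and Cdx2, Elf5 and Gata3 of trophoblast had no reads. No gene of these 5 lists had more than 8 reads in a library, and the germ line list, with 3 of 3 genes detected, summed to between 48.5 and 51.3 scaled RPM in WT and between 17.1 and 27.7 in KO. The library medians of tail length over all reads crossed the genotypes, at 97.3 and 105.6 nt in WT and 105.8 and 98.1 nt in KO, so WT 2 and KO 1 stood above WT 1 and KO 2.

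The 40 genes gave 5397 reads, which were 1016 (WT 1), 1025 (WT 2), 2018 (KO 1) and 1338 (KO 2). This was 0.231%, 0.292%, 0.295% and 0.311% of the reads of those libraries. Levels are given below as scaled RPM, that is, reads divided by the library's median-of-ratios size factor and expressed per 1000000 reads of an average library. A direct RNA read is a single tailed molecule whatever its length, so levels of different genes are compared without division by transcript length. A single read was worth between 1.38 scaled RPM in KO 1 and 2.69 scaled RPM in WT 2. These are bulk libraries, and a lower level can come from fewer cells with the RNA or from less RNA per cell, which cannot be told apart.

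**Figure D1:**
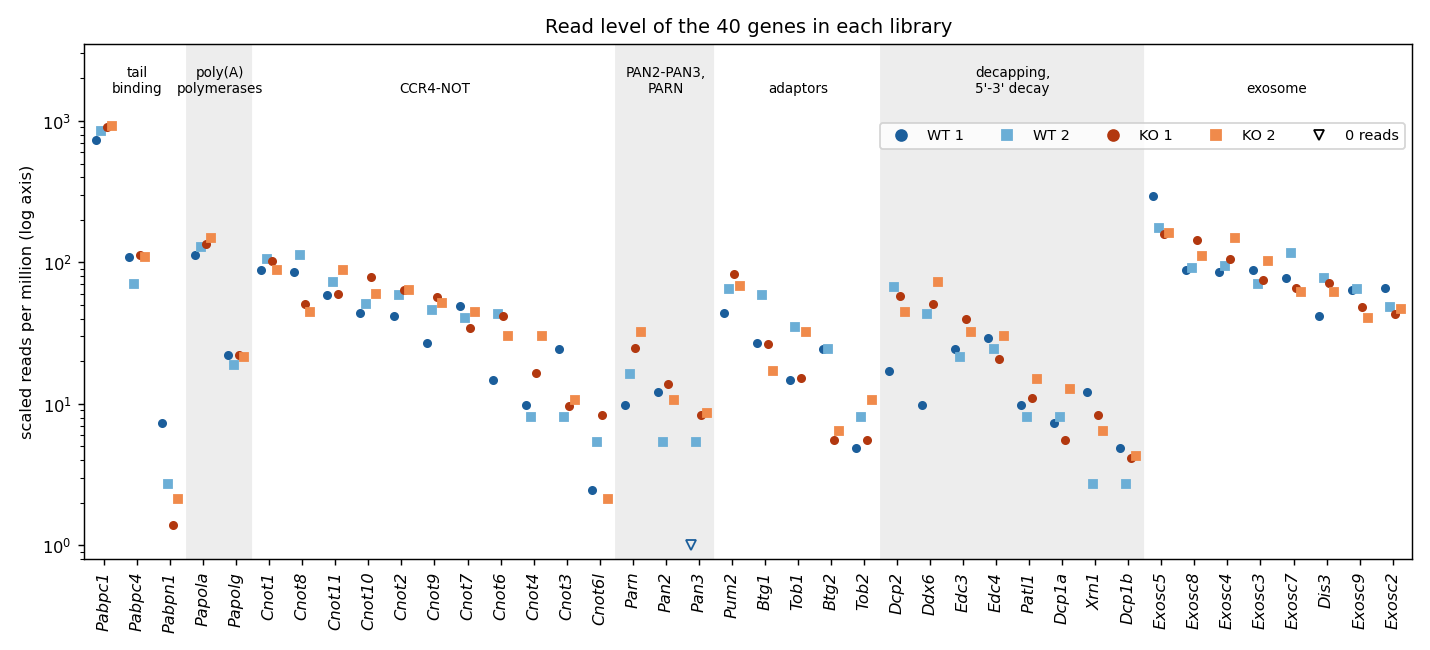
Read level of each of the 40 genes in scaled RPM (log axis), 1 point per library, grouped by role; the open triangle at the lower edge marks Pan3, which had 0 reads in WT 1. Pabpc1 lies between 730.8 and 926.2, the exosome subunits between 40.6 and 293.3, and the PAN2, PAN3, DCP1, XRN1 and PATL1 genes at or under 15.0.

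Pabpc1 (ENSMUSG00000022283.15), the main cytoplasmic poly(A)-binding protein, was by far the most read of the 40 genes, with 1701 reads or 31.5% of the total. Its level was 730.8 and 854.0 scaled RPM in WT and 901.9 and 926.2 scaled RPM in KO, and 98.8% of the genes with reads had fewer. Pabpc4, a close relative of Pabpc1, stood at 110.0 and 70.04 scaled RPM in WT and 113.4 and 109.1 scaled RPM in KO. Pabpc4 therefore made up 10.7% of the reads of the pair (exact 95% interval 9.36 to 12.2%). Pabpn1, the nuclear poly(A)-binding protein, had 6 reads in all.

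Papola, the canonical poly(A) polymerase, was measured at 112.4 and 129.3 scaled RPM in WT and 135.6 and 149.7 scaled RPM in KO. Its relative Papolg stood at 22.0 and 18.9 scaled RPM in WT and 22.1 and 21.4 scaled RPM in KO, and made up 13.8% of the reads of the pair (10.1 to 18.2%).

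Among the CCR4-NOT genes, the level over all libraries was highest for the scaffold Cnot1, at 95.8 ± 9.23 scaled RPM (SD, n = 4), and lowest for the nuclease Cnot6l, with 10 reads in all. Cnot8 followed Cnot1 at 73.7 ± 31.8, Cnot11 at 69.6 ± 13.7, Cnot10 at 58.5 ± 15.1 and Cnot2 at 57.2 ± 10.6 scaled RPM. Each of these overlapped in its library values with the next. Cnot9 (45.2 ± 13.0), Cnot7 (42.2 ± 6.14), Cnot6 (32.3 ± 13.1), the ubiquitin ligase Cnot4 (16.1 ± 9.94) and Cnot3 (13.2 ± 7.55 scaled RPM) were lower. CCR4-NOT holds 1 nuclease of each of 2 types, a CNOT7 or CNOT8 subunit and a CNOT6 or CNOT6L subunit, and both alternatives were read for each type. Cnot6l made up 13.2% of the reads of Cnot6 and Cnot6l together (6.49 to 22.9%).

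The other deadenylase genes were low. Parn averaged 20.7 ± 9.78 scaled RPM (SD, n = 4), Pan2 10.5 ± 3.66 and Pan3 5.56 ± 3.98 scaled RPM. Pan3 had 0, 2, 6 and 4 reads in WT 1, WT 2, KO 1 and KO 2, and 0 reads in WT 1 allow a level of up to 7.33 scaled RPM, above the 5.39 of WT 2 and below the 8.30 and 8.56 of KO 1 and KO 2. Pan2 lies on chromosome 10 in the run of neighbouring genes from Prim1 to Bloc1s1 in the RefSeq gene order, and had 5, 2, 10 and 5 reads in the same order of libraries. Of the adaptor genes, Pum2 was the highest at 65.0 ± 16.1 scaled RPM, followed by the antiproliferative factors Btg1 (32.4 ± 18.5), Tob1 (24.3 ± 10.8), Btg2 (15.2 ± 10.6) and Tob2 (7.30 ± 2.65 scaled RPM).

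In decapping, the catalytic subunit Dcp2 averaged 46.9 ± 21.9 scaled RPM (SD, n = 4) and the helicase Ddx6, which links CCR4-NOT to decapping, 44.2 ± 26.1. The cofactors Edc3 (29.5 ± 8.33) and Edc4 (26.1 ± 4.37) were intermediate. Patl1 (10.97 ± 2.93), Dcp1a (8.45 ± 3.12), the exonuclease Xrn1 (7.41 ± 3.96) and Dcp1b (4.00 ± 0.93 scaled RPM) were the lowest. Reads of the exosome were more evenly spread over its subunits. Exosc5, a subunit of the barrel, led with 197.5 ± 64.2 scaled RPM, and the other 6 EXOSC genes and the nuclease Dis3 lay between 51.1 (Exosc2) and 108.7 (Exosc8) scaled RPM. The group sums over genes were 804, 738, 712 and 736 scaled RPM for the exosome and 445, 552, 523 and 513 scaled RPM for CCR4-NOT, in WT 1, WT 2, KO 1 and KO 2. The CCR4-NOT sums overlapped between the genotypes. The exosome sums of both KO libraries lay below those of both WT libraries, with KO 2 only just under WT 2, and this difference was not tested.

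Tail length was first described over all reads of the 40 genes. The median was 100.9 nt in WT 1, 110.1 nt in WT 2, 113.9 nt in KO 1 and 101.9 nt in KO 2, the same order of libraries as over all reads of the table. Averaged by genotype, these medians gave 105.5 ± 6.45 nt for WT and 107.9 ± 8.53 nt for KO (SD, n = 2 each), a gap smaller than either SD. Tails of 150 nt or more made up 23.0% (95% Wilson interval 20.5 to 25.7%), 29.2% (26.5 to 32.0%), 30.1% (28.1 to 32.1%) and 23.5% (21.3 to 25.9%) of the reads of the 40 genes. Over all reads of the table the shares were 18.8%, 24.0%, 23.7% and 19.6%, so the 40 genes, with their reads pooled, lay above the table in each of the 4 libraries. Tails under 30 nt made up 1.77%, 3.90%, 2.13% and 4.33% of their reads, against 2.35%, 3.02%, 1.55% and 2.75% of all reads, so the 40 genes lay below the table in WT 1 and above it in the other 3 libraries. Without Pabpc1 the share of long tails was 26.4%, 30.8%, 30.5% and 26.1%. Pooled shares give most weight to genes with many reads. Counting each gene once, 11 of the 40 were among the 1935 genes tested below for tail length. The mean of a gene's 4 library medians had a median of 106.1 nt over the 11 and 105.8 nt over the 1935. Of the 11 genes, 6 lay above the value for the 1935, so typical tail length hardly differed. The share of long tails was not compared in this way. All intervals here cover the sampling of reads only.

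**Figure D2:**
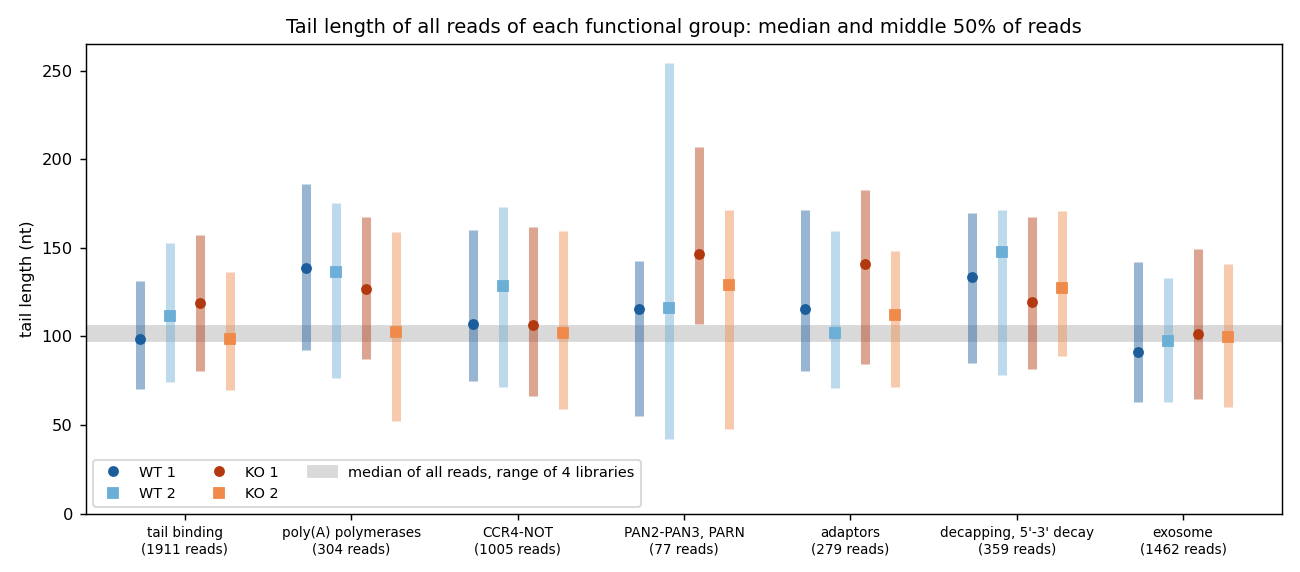
Tail length in nt of all reads of each functional group, with the median (point) and the middle 50% of reads (bar) in each of the 4 libraries; the grey band is the range of the 4 library medians over all reads, 97.3 to 105.8 nt. Exosome medians lie between 91.4 and 101.1 nt, and decapping medians between 119.6 and 147.8 nt.

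Grouped by role and pooled over libraries, the mRNAs of the exosome had the shortest median tail (97.0 nt, 1462 reads), and those of decapping (127.2 nt, 359 reads) and of PAN2, PAN3 and PARN (135.3 nt, 77 reads) the longest. Exosome reads had medians of 91.4 and 97.2 nt in WT and 101.1 and 99.7 nt in KO. Decapping and 5′-to-3′ decay reads had medians of 133.3 and 147.8 nt in WT and 119.6 and 127.2 nt in KO, above the exosome in each library. Without Ddx6, which had 4 reads in WT 1, the decapping medians were 116.9 and 136.6 nt in WT and 118.1 and 138.2 nt in KO, so the genotypes then overlapped. CCR4-NOT medians were 107.2 and 128.4 nt in WT and 106.6 and 102.1 nt in KO. Within CCR4-NOT, the pooled reads of the 4 nuclease genes Cnot6, Cnot6l, Cnot7 and Cnot8 had a median of 127.8 nt (95% interval 115.8 to 140.2 nt), and those of the 7 other subunits 103.8 nt (96.7 to 111.1 nt). The nuclease median was the longer of the pair in each of the 4 libraries, at 128.9 against 102.5 nt in WT 1, 142.9 against 119.4 nt in WT 2, 124.5 against 102.2 nt in KO 1 and 118.3 against 97.7 nt in KO 2. The genes of each set differed among themselves, since the pooled median was 151.6 nt for Cnot6, 121.9 nt for Cnot8, 118.6 nt for Cnot7 and 95.5 nt for Cnot6l, and in the other set 120.0 nt for Cnot1 and 117.2 nt for Cnot9 but 89.4 nt for Cnot11 and 81.9 nt for Cnot10. Reads of 1 gene or group share their libraries and cells, so these are descriptions without a test.

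Single genes were compared where each library had at least 20 reads, which 11 of the 40 genes reached. Over these libraries Exosc4, an exosome subunit, had the shortest median tails of the 11, at 85.4 and 67.7 nt in WT and 77.0 and 79.7 nt in KO, and 1.40% of the 1935 genes tested had shorter ones. Papola (ENSMUSG00000021111.15) had the longest, at 145.4 and 135.4 nt in WT and 126.7 and 102.3 nt in KO, and 91.4% of genes had shorter ones. The libraries of Exosc4 and Papola, picked as the ends of the 11, did not overlap, whereas the genes between them overlapped with their neighbours. Cnot1 had nearly the same median in every library, 120.0 and 117.3 nt in WT and 124.3 and 118.8 nt in KO. Cnot8 was measured at 111.7 and 142.3 nt in WT and 121.9 and 117.0 nt in KO. Cnot11, a subunit of the N-terminal module of the complex, was short, at 89.2 and 75.9 nt in WT and 84.8 and 102.8 nt in KO.

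**Figure D3:**
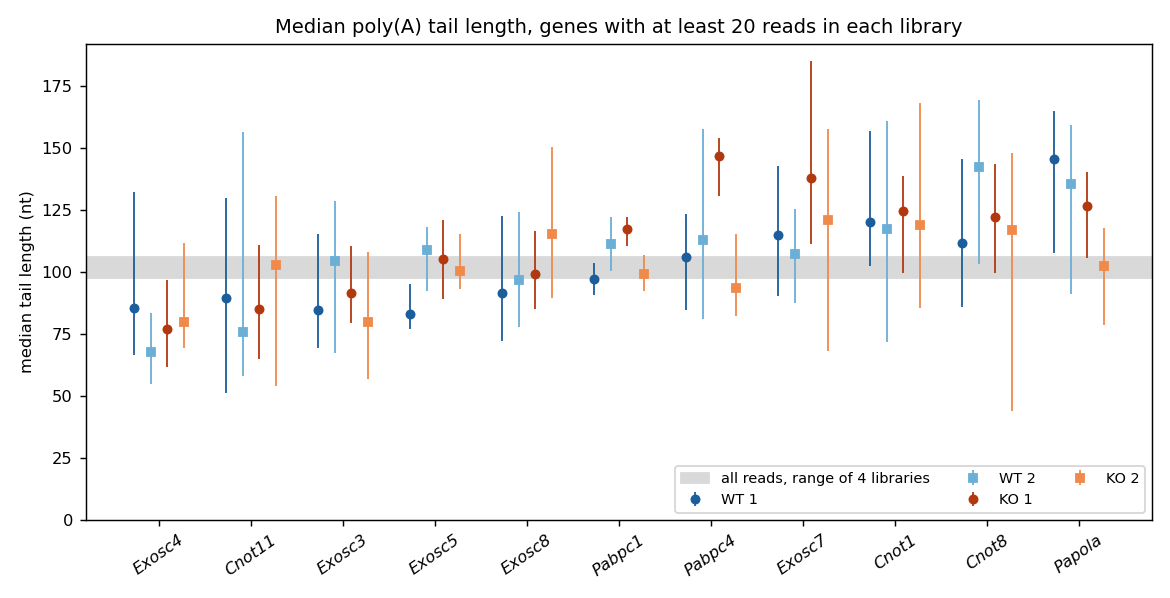
Median tail length in nt of the 11 genes that had 20 reads or more in every library, ordered by their mean; bars are exact 95% intervals of a median from read sampling, and the grey band is the range of the 4 library medians over all reads. Exosc4 lies between 67.7 and 85.4 nt and Papola between 102.3 and 145.4 nt; for Pabpc1, WT 2 and KO 1 are high and WT 1 and KO 2 low.

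The 29 genes with fewer reads hold 1637 reads and were described with the libraries pooled. Among the 17 of them with at least 40 reads, the pooled median ran from 81.9 nt for Cnot10 (66.1 to 97.9 nt, 122 reads) to 151.6 nt for Cnot6 (133.2 to 172.9 nt, 66 reads). Dcp2 had 140.1 nt (127.0 to 166.4 nt), Papolg 134.1 nt (75.7 to 153.6 nt), Pum2 130.1 nt (113.3 to 144.7 nt) and Ddx6 129.0 nt (109.3 to 145.0 nt). The intervals of Cnot10 and Cnot6 did not overlap, but these genes were picked as the ends of the range and the intervals cover the sampling of reads only. The 12 genes with fewer than 40 reads ran from 74.3 nt (Cnot3) to 310.1 nt (Pan3). The value of Pan3 rests on 12 reads, with an interval from 209.7 to 347.4 nt, and was picked out after it was seen.

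The comparison of KO with WT for tail length asked whether loss of Mov10 goes with another tail length of these mRNAs. None of the 11 genes passed an adjusted p of 0.05 in limma's test on log2 median tail length, and none had an unadjusted p under 0.05. Over all 1935 genes tested 0% passed the adjusted threshold and 2.33% had an unadjusted p under 0.05. The largest difference of the 11 was that of Papola, whose median tail averaged 140.4 ± 7.08 nt over the WT libraries and 114.5 ± 17.2 nt over the KO libraries (SD, n = 2 each). The log2 change was -0.30 ± 0.17 (SE), with an unadjusted p of 0.0695 and an adjusted p of 0.9998 (limma). Papola was the 1 gene of the 11 whose KO libraries both lay under both WT libraries, where 11.8% of all genes tested did. Exosc7 and Exosc8 were the 2 genes whose KO libraries both lay above, where 14.7% of all genes did.

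Exosc7 had medians of 114.7 and 107.4 nt in WT and 137.7 and 120.8 nt in KO (log2 change 0.22 ± 0.20, SE). Exosc8 had 91.4 and 96.7 nt in WT and 99.2 and 115.2 nt in KO (0.19 ± 0.17, SE). Pabpc1, the gene with most reads, had 96.9 and 111.2 nt in WT and 117.3 and 99.1 nt in KO, a log2 change of 0.05 ± 0.12 (SE). Pabpc1 followed the order of the library medians, with WT 2 and KO 1 high and WT 1 and KO 2 low. Pabpc4 had 106.0 and 112.9 nt in WT and 146.8 and 93.7 nt in KO, so its highest and its lowest value were both in KO. Exosc5 had 82.8 and 108.9 nt in WT and 105.2 and 100.4 nt in KO, and Exosc3 84.6 and 104.4 nt in WT and 91.4 and 79.8 nt in KO. Of the 11 genes 8 had a log2 change above 0, where 51.8% of all genes tested did, and their median change was 0.05 against 0.01 over all genes. Without WT 1 the median change was -0.04, over the 15 of the 40 genes that then had 20 reads in each library left. The median SE of the 11 genes was 0.18 on the log2 scale.

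The comparison of read number asked whether the mRNA levels of the decay machinery differ between the genotypes. It covered 28 genes, those averaging 10 or more reads a library, while the other 12 genes had between 6 and 33 reads in all. None of the 28 passed an adjusted p of 0.05 in limma's voom test (lowest adjusted p 0.282), and with limma's trend test none did either. Over all 4815 genes tested 0% passed. An unadjusted p under 0.05 was reached by 2 of the 28 genes, Cnot8 and Ddx6, where 10.3% of all genes tested had one. The median SE of the 28 genes was 0.36 on the log2 scale.

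**Figure D4:**
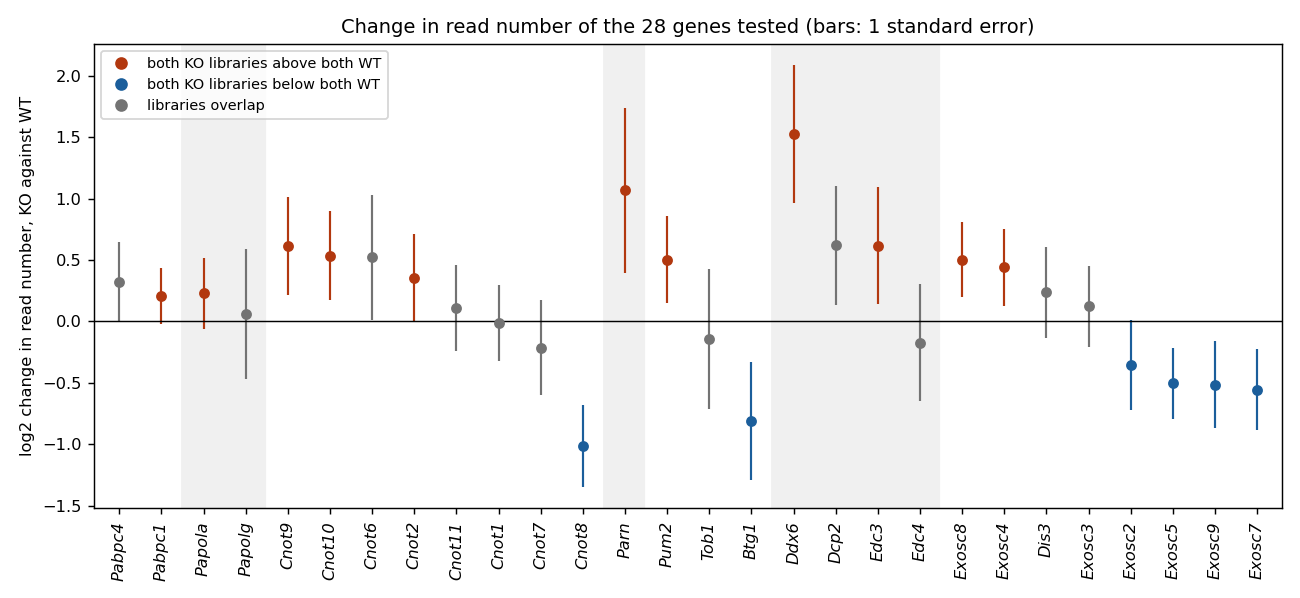
Log2 change in read number, KO against WT, of the 28 genes tested, with bars of 1 standard error and the genes in the same role order as in the plot of levels (alternating shading). Points are coloured by whether both KO libraries lie above (11 genes) or below (6 genes) both WT libraries; Ddx6 is at 1.53 and Cnot8 at -1.01, and none passed the adjusted threshold.

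Cnot8 (ENSMUSG00000020515.13) had 85.5 and 113.1 scaled RPM in WT and 51.2 and 44.9 scaled RPM in KO. The log2 change was -1.01 ± 0.34 (SE), with an unadjusted p of 0.00739 and an adjusted p of 0.282 (limma voom). Without WT 1 the change was -1.22, in a fit that takes the lone WT library to vary like the KO libraries. Cnot7, which fills the same place in the complex, had 48.9 and 40.4 scaled RPM in WT and 34.6 and 44.9 scaled RPM in KO, values that overlapped. Cnot8 thus made up 63.6% and 73.7% of the reads of the pair in WT and 59.7% and 50.0% in KO, but the exact 95% intervals, from 49.6 to 76.2% in WT 1 and from 34.2 to 65.8% in KO 2, overlapped.

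Ddx6 (ENSMUSG00000032097.10) was read 4 and 16 times in WT against 37 and 34 times in KO, or 9.78 and 43.1 scaled RPM in WT and 51.2 and 72.7 scaled RPM in KO. The log2 change was 1.53 ± 0.56 (SE), with an unadjusted p of 0.0139 and an adjusted p of 0.346 (limma voom). The WT libraries were further apart than WT 2 and KO 1. Without WT 1 the change was 0.44, and without WT 2, where the lone WT library had 4 reads of Ddx6, it was 2.46. Dcp2 was low in the same library, at 17.1 scaled RPM in WT 1 against 67.4 in WT 2 and 58.1 and 44.9 in KO. Its change of 0.62 ± 0.48 (SE) became -0.38 without WT 1.

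In all, 11 of the 28 genes had both KO libraries above both WT libraries, where 20% of all genes tested did, and 6 had both below, where 20.5% did. A log2 change above 0 was found for 18 of the 28 and for 49.4% of all genes, and the median change was 0.22 for the 28 and -0.01 for all. Scaled by total reads, the median over all genes moved to 0.11 and that of the 28 genes to 0.34, with 13 genes above and 5 below, where 25.2% and 15.5% of all genes tested lay above and below. Leaving out WT 1 gave a median of 0.02 for the genes. The summed level of the embryonic stem cell markers was lower in both KO libraries, and 7 of the 12 markers were lower in both; the part of this in the read numbers was not tested.

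By role, both tail-binding genes tested and both polymerases had changes above 0, of 0.21 ± 0.23 (SE) for Pabpc1 and 0.23 ± 0.29 (SE) for Papola, and the KO libraries of these genes lay above WT. For Pabpc4 and Papolg the libraries overlapped. In CCR4-NOT the non-catalytic subunits Cnot2, Cnot9 and Cnot10 had both KO libraries above WT, with changes of 0.35, 0.62 and 0.54, and Cnot8 both below. Cnot1 was measured at 96.5 ± 12.1 scaled RPM (SD, n = 2) in WT and 95.03 ± 10.4 scaled RPM (SD, n = 2) in KO. Parn, a deadenylase that acts on selected mRNAs and on small RNAs, had 9.78 and 16.2 scaled RPM in WT and 24.9 and 32.1 scaled RPM in KO, from 4, 6, 18 and 15 reads (1.07 ± 0.67, SE).

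Among the adaptors, Pum2 had 44.0 and 64.7 scaled RPM in WT and 83.0 and 68.4 scaled RPM in KO (0.50 ± 0.35, SE). Btg1 had 26.9 and 59.3 scaled RPM in WT and 26.3 and 17.1 scaled RPM in KO (-0.81 ± 0.48, SE). Its relative Btg2 had too few reads for the main test, from 10 and 9 reads (WT) against 4 and 3 (KO), or 24.4 and 24.2 scaled RPM in WT and 5.53 and 6.42 scaled RPM in KO. The WT and KO values of Btg2 did not overlap, and in a fit without the filter on low read numbers its log2 change was -1.93 ± 0.67 (SE) with an adjusted p of 0.204 (limma voom). Btg2 was singled out after its values were seen. Among the other genes with too few reads for the main test, Pabpn1 also had both KO libraries below WT. Cnot4, Pan3 and Patl1 had both above. Cnot4 had 9.78 and 8.08 scaled RPM in WT and 16.6 and 29.9 scaled RPM in KO, with a log2 change of 1.12 ± 0.65 (SE) without the filter.

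The exosome subunits lay on both sides of 0. Exosc4 and Exosc8 had both KO libraries above WT, at 105.1 and 147.6 against 85.5 and 94.3 scaled RPM for Exosc4 and 143.9 and 111.2 against 88.0 and 91.6 scaled RPM for Exosc8. Exosc2, Exosc5, Exosc7 and Exosc9 had both below. Exosc5 (ENSMUSG00000061286.7) had 293.3 and 175.1 scaled RPM in WT and 159.1 and 162.6 scaled RPM in KO, so that WT 1 stood apart from the other 3 libraries. Its log2 change was -0.50 ± 0.29 (SE) with an adjusted p of 0.577 (limma voom). Without WT 1 the change was -0.14, and without WT 2 it was -0.87. Exosc7 had 78.2 and 115.8 scaled RPM in WT and 66.4 and 62.0 scaled RPM in KO (-0.56 ± 0.33, SE). For Exosc3 and Dis3 the libraries overlapped. Of the 11 genes compared for tail length, Exosc7 had lower read numbers and longer tails in both KO libraries and Papola higher read numbers and shorter tails. Exosc8 had higher read numbers and longer tails in both, so the measures did not move in opposite directions throughout. No measure of these genes passed its test.

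The promoters of 33 of the 40 genes were in the RefSeq sequence table for GRCm38.p6, as 250 bases before to 50 bases after the gene start; the others are Pabpc1, Cnot1, Cnot7, Dcp2, Ddx6, Exosc4 and Exosc9. The median GC content was 62.7% for the 33 genes and 61.0% for the 3846 genes with a promoter in the table among those tested for read number. In all 6 motifs of common promoter factors were searched on both strands. The GC box GGGCGG was found in 25 of 33 promoters (75.8%), in 72.2% of the promoters of genes tested and in 38.2% of all 27025 promoters of the table. The ETS motif CCGGAAGT was in 3 promoters (9.09%, against 12.4% of genes tested and 4.31% of all). The NRF1 motif GCGCATGC was in 3 (9.09%, against 7.33% and 3.05%) and the YY1 motif AAGATGGC in 3 (9.09%, against 7.15% and 3.19%). The CCAAT box was in 13 (39.4%, against 45.1% and 41.1%), and the CRE motif TGACGTCA, which reads the same on both strands, in 1, that of Btg2 (3.03%, against 4.16% and 2.03%). None of these motifs contains another. The shares thus lay near those of the genes tested. The GC content of the 33 ran from 44.2 to 75.7%. As examples 3 promoters are shown, those of Cnot9 and Cnot10, whose reads were higher in both KO libraries, and of Exosc5, whose reads were lower in both. Each run holds the 100 bases before the gene start, 5′ to 3′ on the strand of the gene, with the matches of 1 motif for each gene, ETS or NRF1, on either strand in capitals; matches of the GC box and the CCAAT box are not marked. For Cnot10, on the minus strand at chr9:114640201-114640300, the capitals are 2 ETS matches. For Cnot9, on the plus strand at chr1:74505960-74506059, and Exosc5, on the plus strand at chr7:25659053-25659152, they are 1 NRF1 match each. A match is a description of letters and not evidence of binding.
Cnot10: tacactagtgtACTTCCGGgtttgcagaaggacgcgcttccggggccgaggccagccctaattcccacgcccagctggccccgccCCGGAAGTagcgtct
Cnot9: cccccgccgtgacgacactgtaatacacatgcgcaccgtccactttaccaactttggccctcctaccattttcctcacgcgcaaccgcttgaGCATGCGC
Exosc5: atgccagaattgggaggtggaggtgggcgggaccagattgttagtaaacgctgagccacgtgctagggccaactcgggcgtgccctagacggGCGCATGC

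Reads of most genes were spread over several deposited transcripts. Of the 40 genes 9 had reads on 1 transcript and 31 on more, up to 8 for Papola. Direct RNA reads start at the 3′ end and often stop before the 5′ end, so transcripts that share a 3′ end cannot always be told apart, and how reads were assigned among transcripts is not given in the sources used here. In 6 of the 11 genes compared for tail length a single transcript held 90% or more of the reads, and in the other 5 it held under 70%. For Cnot10, reads on the main transcript ENSMUST00000070117.7 had a pooled median of 74.9 nt (61.3 to 89.3 nt, 92 reads) and those on ENSMUST00000217148.1 a median of 111.3 nt (78.0 to 131.3 nt, 19 reads), with intervals that overlapped. For Cnot11, ENSMUST00000161515.7 had 97.2 nt (78.3 to 117.2 nt, 82 reads) and ENSMUST00000003219.13 had 66.1 nt (48.3 to 91.2 nt, 34 reads), which also overlapped. For Cnot8, 59.3% of reads lay on ENSMUST00000020822.11 with a median of 114.3 nt and 40.7% on ENSMUST00000108843.7 with 131.8 nt. The share of the first Cnot8 transcript was 68.6% and 45.2% in WT and 62.2% and 66.7% in KO, so the genotypes overlapped. Papola had 120.0 nt on ENSMUST00000169938.7 (69.1% of reads) and 125.7 nt on ENSMUST00000166735.7 (21.0%).

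The authors' deposited table also sorts genes by whether they are Mov10 targets and, for targets, by whether they carry m6A; it does not state the source of these classes. Of the 40 genes 8 were targets with m6A, 16 targets without m6A, 11 non-targets and 5 in no class, or 20%, 40%, 27.5% and 12.5%. Among all genes tested for read number the shares were 18.8%, 34.0%, 31.4% and 15.8%. The classes fell unevenly over the roles. Of the 7 EXOSC genes 6 were non-targets, the exception being Exosc9, a target without m6A. Of the 11 CCR4-NOT genes none was a non-target, with Cnot1, Cnot2, Cnot4 and Cnot6 as targets with m6A, 5 as targets without m6A, and Cnot9 and Cnot11 in no class. Pabpc1, Dcp2, Edc3 and Tob2 were the other targets with m6A. Dis3, Ddx6, Xrn1, Patl1, Parn, Pan3, Pum2, Btg2, Pabpc4 and Papola were further targets without m6A. Cnot8 and Ddx6, whose changes in read number had opposite signs, were both targets without m6A.

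Other genes of the same pathways were taken from lists of tail-binding, tail-adding, cleavage and polyadenylation, deadenylation, decapping, exosome and nonsense-mediated decay genes. Of these 98 were detected. None of the 61 tested for read number passed an adjusted p of 0.05 in limma's voom test. An unadjusted p under 0.05 was reached by 5 of the 61, where 10.3% of all genes tested had one. A change above 0 was found for 34, where 49.4% of all genes tested had one, with a median of 0.09 against -0.01 over all. None of the 20 tested for tail length passed in limma's test or had an unadjusted p under 0.05, where 2.33% of all genes tested had one. A change above 0 was found for 8, where 51.8% of all genes tested had one, with a median of -0.01 against 0.01 over all. Lsm3, a subunit of the ring that helps decapping, had 41.5 and 99.7 scaled RPM in WT and 98.2 and 147.6 scaled RPM in KO, values that overlapped (0.88 ± 0.38, SE). Cpsf6, a subunit of the cleavage machinery, had 68.4 and 45.8 scaled RPM in WT and 87.2 and 109.1 scaled RPM in KO, both above WT (0.76 ± 0.35, SE). Paip2, which binds and inhibits poly(A)-binding protein, had median tails of 90.4 and 104.2 nt in WT and 125.8 and 104.5 nt in KO, so KO 2 and WT 2 were nearly equal.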

How the data were processed

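Direct RNA nanopore sequencing was done on poly(A) RNA selected with oligo(dT) beads, using the SQK-RNA002 kit with DeePlexiCon barcodes, per the labels' protocols. The deposited table gives 1 read per row with an Ensembl transcript, a gene symbol, a library and the authors' estimate of tail length in nt, which is a length and not a count, per the file headers. The submitters' processing notes name minimap2 2.20, without its role. The basecaller, the tail estimator, the genome build and any filter on reads are not given in the sources used here. Of 1903922 reads, 3 with a length of 0 were left out. Molecules with few or no A residues are lost at the bead step. The table had 0 columns of other samples.

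Reads were counted and tail lengths summarised by their median here, per symbol and library, and libraries were the replicates. Both tests ran over the whole table and were adjusted by Benjamini-Hochberg, with a threshold of 0.05. Tail length was tested with limma 3.58.1 (R 4.3.3) on log2 medians of genes with at least 20 reads in each library, with the variance trend on log2 mean reads. Read number was tested with limma's voom for genes averaging 10 or more reads a library, with 0.5 reads added and median-of-ratios scaling. Both were tested on simulated data. Medians have exact 95% order-statistic intervals, shares of tails Wilson intervals, shares within pairs of genes Clopper-Pearson intervals, and 0 reads were taken to allow 3. The other steps ran in Python 3.11.15 (pandas 2.3.3, scipy 1.17.1, numpy 2.4.6).

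The 40 genes, the other lists and the tests were chosen with earlier results of these data known. By the rule for named genes, every gene is accounted for, those with at least 20 reads in each library are named for tail length, and the rest are given pooled. Alternatives took another summary of tail length, other read minimums, weights, centring, scaling, depth or model, added the replicate number as a block, or left out each library; scaling factors over all symbols were added after seeing the data.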

Additional observations from a re-analysis of the deposited data

How the results depend on the processing

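With 2 libraries a genotype, single libraries set most values, and the cause was not tested for any change below. In the count of genes past the adjusted threshold for tail length, a minimum of 10 reads gave 1 call and leaving out a library gave from 0 to 2, with none among the 40 genes. For read number, no filter gave 97 calls, scaling by total reads 7, upper-quartile scaling 1 and scaling factors over all symbols, added after seeing the data, 1; leaving out a library gave from 0 to 451 (93 without WT 1, 451 without WT 2). Among the 40 genes, calls came only in fits with a lone WT library, for Cnot8 without WT 1 and for Ddx6 and Exosc5 without WT 2. The fit without WT 1 tested 4978 genes, 28 of them among the 40. The fit without WT 2 tested 5086 genes, 29 of them among the 40. Both take the lone WT library to vary like the KO libraries, so these calls were not read as results on the 40 genes. Deviations of libraries with the same number in the sample titles correlated at 0.0135 for tail length and 0.0161 for read number. This cannot show whether these libraries were paired, since few reads per gene weaken such a correlation and a shift common to all genes is missed. With the replicate number as a block there were 0 calls for tail length and 66 for read number, none among the 40 genes. The median change over the genes that passed the read minimums in the libraries left ranged, with a library left out, from -0.0449 to 0.0960 for tail length (0.00180 without KO 1) and from 0.0204 to 0.328 for read number. The difference of KO minus WT over all their reads was 2.38 nt and ranged from -3.66 to 8.41 nt, that of short tails from -0.71 to 1.498 and that of long tails from -2.56 to 3.98 percentage points. The sign for tail length turned for Cnot1 with the arithmetic mean (-0.0482), the mean of log2 lengths (-0.0337) and thinned reads (-0.00674), and for Cnot11 with both means (-0.0197 and -0.0442); for read number it turned for Cnot1 with thinned reads (0.13) and scaling by total reads (0.10). Leaving out a library turned the sign for tail length of Pabpc1 (-0.0675 to 0.18), Pabpc4 (-0.22 to 0.42), Cnot8 (-0.25 to 0.10), Exosc3 (-0.29 to 0.0136), Exosc4 (-0.12 to 0.21) and Exosc5 (-0.0844 to 0.31), and for read number of Papolg (-0.0331 to 0.16), Cnot1 (-0.15 to 0.11) and Dcp2 (-0.38 to 1.53). Among the named genes, with Mov10 counted, 235 values kept their sign and side of the threshold, 18 turned and 8 passed the threshold where the main value did not. Those that passed were Cnot8, Ddx6 and Exosc5 with a WT library left out, and otherwise Mov10. Mov10 passed with no filter, the replicate block and each other scaling (adjusted p from 1.92e-06 to 0.0335, limma voom). Mov10 did not pass in limma's trend test (adjusted p 0.172), nor in the fits with a lone KO library. Its change in those fits was -3.96 without KO 1 and -6.19 without KO 2. Depth limits tail length to 11 genes and read number to 28, with median SEs of 0.18 and 0.36 on the log2 scale.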
